A study of Mus musculus with 18 samples.

Results

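A group of 9 genes encodes the Tudor domain proteins of germ granules that are described here: Tdrd1, Tdrd3, Tdrd5, Tdrd7, Tdrd9, Tdrd12, Tdrkh, Stk31 and Rnf17. Members were taken by name, as all probe sets annotated to 1 of these 9 genes alone on a mouse Affymetrix expression array, out of 18193 genes that the array annotates in this way. That gave 16 probe sets, of which 15 passed the filter on low signal and 1, the second Tdrd7 probe set (1459216_at), did not. Whole testes were profiled in 4 groups: repro9/repro9 mutants at 17 days postpartum (dpp; 5 arrays), wild type at 17 dpp (5 arrays), repro9/repro9 mutants at 14 dpp (5 arrays) and wild type at 14 dpp (3 arrays). repro9 is an allele of Mybl1, the gene of the meiotic transcription factor A-MYB, and it is carried by every cell of the mutant. The design text places the younger age at early and middle pachytene of meiosis and the older age at late pachytene and diplotene. No agent, transgene or Cre is named for any group. Although the design text speaks of 3 or more mice of each genotype, it does not say which arrays came from different mice. The p-values thus measure spread between arrays.

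Tudor domains are folds that bind methylated arginine or lysine, and in male germ cells many of them bind dimethylated arginines near the N terminus of PIWI proteins. PIWI proteins carry piRNAs, small RNAs that silence transposons and are made in large amounts in pachytene spermatocytes, and the Tudor proteins gather PIWI proteins, helicases and RNA in the intermitochondrial cement and the chromatoid body. Most of these genes are known from the testis through mouse mutants that stop in meiosis or in spermatid development, whereas Tdrd3 is used in many tissues.

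Promoter sequence was set beside the expression data because the mutated gene encodes a DNA-binding factor of the MYB family. The windows run from 250 bases before to 50 bases after an annotated transcript start (RefSeq, GRCm38.p6), and the capitals mark the letters CAACNG or TAACNG, core motifs of MYB proteins, read on either strand. Windows were listed for 8 of the 9 genes, all except Rnf17. The 4 shown belong to Tdrd12 and Stk31, which fell at 17 dpp, to Tdrd5, whose groups did not overlap at 14 dpp, and to Tdrkh, whose groups overlapped at both ages.
Tdrd12, chr7:35537666-35537965, minus strand: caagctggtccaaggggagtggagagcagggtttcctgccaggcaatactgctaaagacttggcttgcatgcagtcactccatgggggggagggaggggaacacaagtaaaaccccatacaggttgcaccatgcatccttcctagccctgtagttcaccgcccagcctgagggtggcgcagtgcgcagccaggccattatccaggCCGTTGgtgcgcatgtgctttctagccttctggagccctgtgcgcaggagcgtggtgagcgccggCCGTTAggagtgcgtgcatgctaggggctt
Tdrd5, chr1:156303299-156303598, minus strand: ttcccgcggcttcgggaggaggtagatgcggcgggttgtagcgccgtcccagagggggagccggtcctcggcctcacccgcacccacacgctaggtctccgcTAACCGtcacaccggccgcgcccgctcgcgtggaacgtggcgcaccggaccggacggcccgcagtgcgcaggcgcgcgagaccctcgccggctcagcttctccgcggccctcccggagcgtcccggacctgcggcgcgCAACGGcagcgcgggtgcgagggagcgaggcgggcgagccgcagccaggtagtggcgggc
Stk31, chr6:49395289-49395588, plus strand: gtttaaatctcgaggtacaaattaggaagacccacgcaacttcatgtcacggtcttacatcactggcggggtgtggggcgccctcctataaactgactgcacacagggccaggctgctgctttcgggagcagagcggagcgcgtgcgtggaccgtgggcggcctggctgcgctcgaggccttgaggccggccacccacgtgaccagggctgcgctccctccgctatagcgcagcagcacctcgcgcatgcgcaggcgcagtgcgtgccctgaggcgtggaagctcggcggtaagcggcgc
Tdrkh, chr3:94412994-94413293, plus strand: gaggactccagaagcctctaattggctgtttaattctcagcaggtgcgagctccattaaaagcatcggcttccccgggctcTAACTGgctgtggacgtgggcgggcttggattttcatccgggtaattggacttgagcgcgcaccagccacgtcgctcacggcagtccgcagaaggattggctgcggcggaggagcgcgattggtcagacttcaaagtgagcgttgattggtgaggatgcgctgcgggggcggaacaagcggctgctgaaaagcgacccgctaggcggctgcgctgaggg

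Counted from the start as 1, the printed Tdrd12 window held 2 matches, both on the opposite strand, with first printed bases at −45 and 21. The Tdrd5 window held 2, at −148 and −10, the Tdrkh window 1, at −169, and the Stk31 window none. The windows of Tdrd7 held 4, 0 and 3, by start, and those of Tdrd1, Tdrd3 and Tdrd9 none. Over all listed starts of the members, 6 of 14 windows held a match, and the starts of 1 gene can overlap. Of all 32851 windows of 300 bases in the table, 49.7% held at least 1 match and 17.2% held 2 or more. No printed matches overlap. A match is a run of letters, and binding was not measured.

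By their β-actin control probes the 18 arrays fell into 3 sets, unnamed in the labels, and several members followed this division. Signal of the 3′ β-actin probe set over that of the 5′ one was 2.31 to 2.92 on 7 arrays (set 1: replicates 1 and 2 of each group except wild type at 17 dpp, which gave replicate 1), 1.45 to 1.49 on 4 arrays (set 2: the other 14 dpp arrays) and 102.6 to 125.1 on 7 arrays (set 3: the other 17 dpp arrays). The 3′ to 5′ ratio of the Gapdh control probe sets was 0.913 to 1.05 on set 1, 0.728 to 0.748 on set 2 and 5.24 to 18.5 on set 3. Set 3 signal thus leaned strongly to the 3′ end by both controls, and the reason was not tested. Set 3 holds 3 mutant and 4 wild-type arrays, and their mean signal without the outer tails was 394.6 to 394.9, against 500 on every other array. The array medians ran from 88.8 to 149. Each set holds both genotypes, so each genotype difference is given from all arrays (limma, 1 mean per group, threshold of 0.05 after Benjamini-Hochberg adjustment over 34764 probe sets) and, where that matters, with a block for the array set and from single sets. Mybl1 itself (brighter probe set) had 293, 278, 123, 83.4 and 154 in mutants at 17 dpp, against 1076, 1475, 2309, 1419 and 3959 in wild type, and 249, 233, 85.1, 68.1 and 95.6 in mutants at 14 dpp, against 512, 775 and 651 in wild type. The mutant and wild-type values did not overlap at either age, and since no source places these probes against the repro9 change, they do not check the labels.

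**Figure D1:**
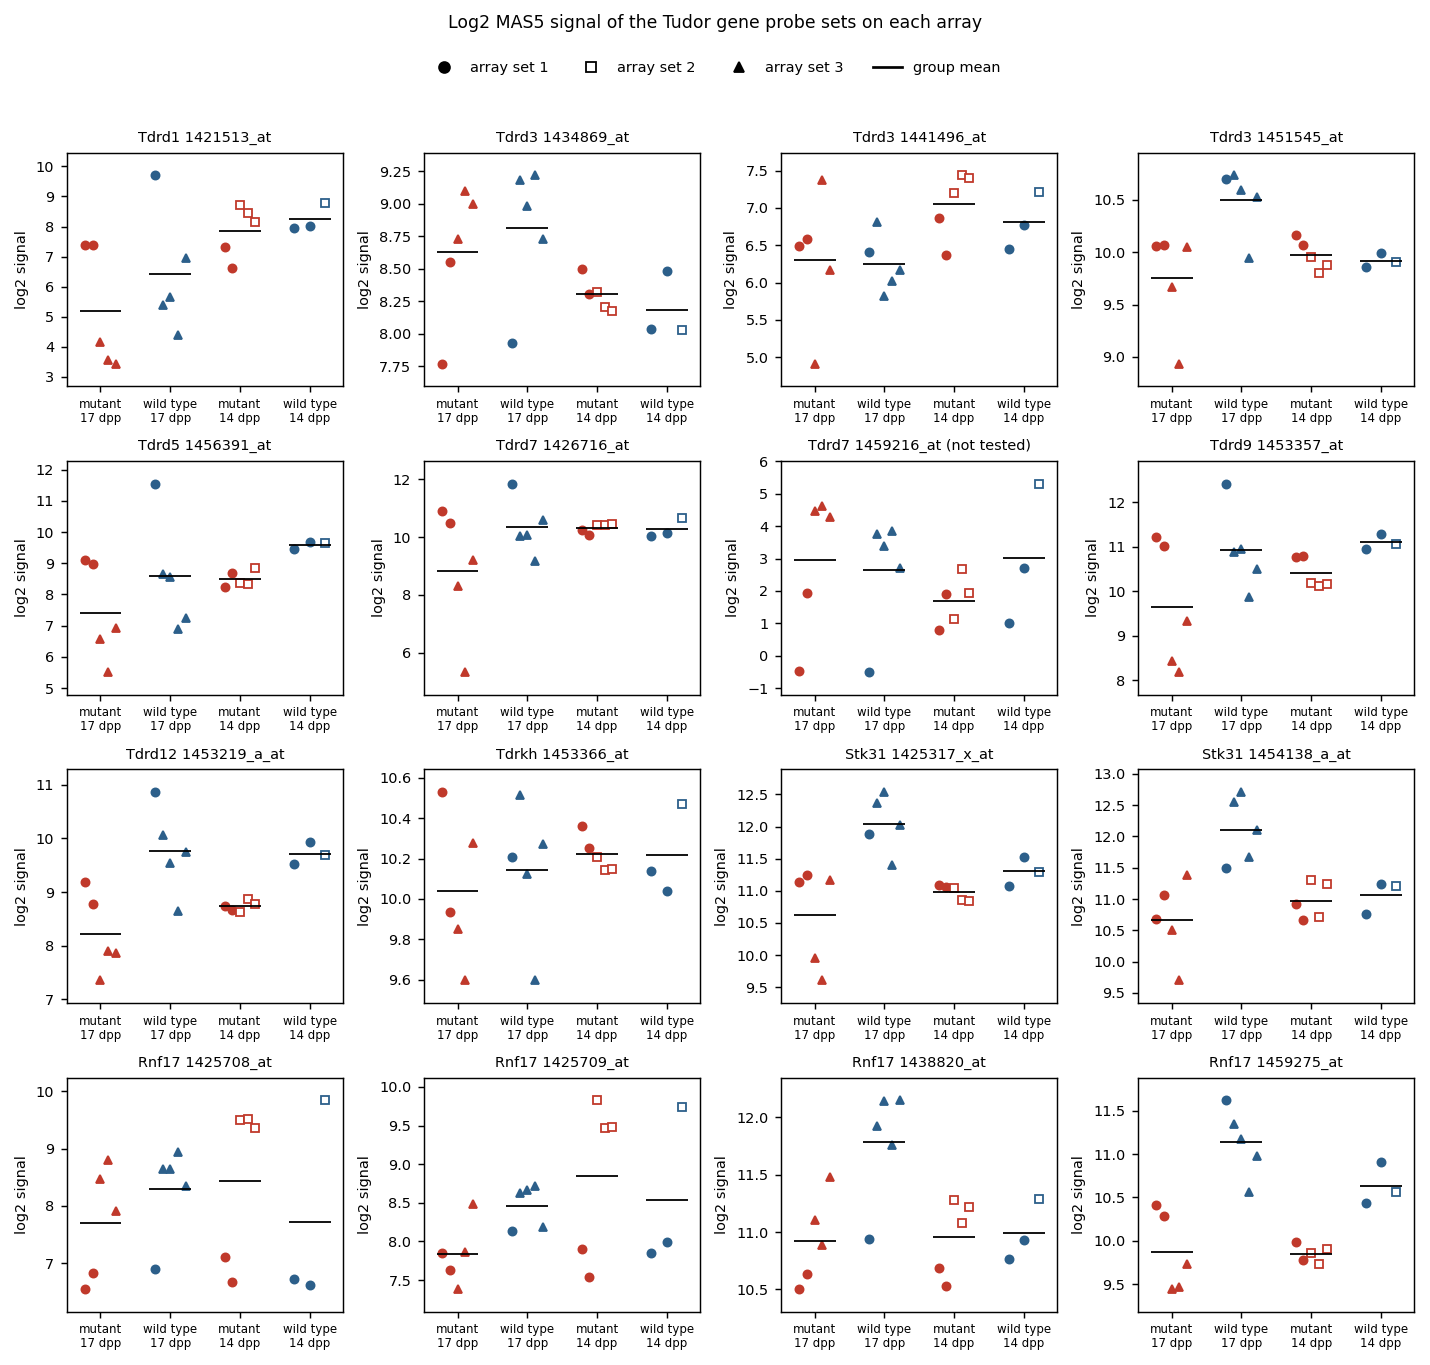
Log2 MAS5 signal (vertical axis, a separate range for each panel) of the 16 probe sets of the 9 Tudor genes on each of 18 arrays, by group; each point is 1 array, red for mutants and blue for wild type, its shape gives the array set, and lines are group means. The Stk31 probe sets and Rnf17 1459275_at at 17 dpp show no overlap of mutant and wild-type arrays, while Tdrd1, Tdrd5, Tdrd7 and Tdrd9 also differ between set 1 and set 3 within each genotype.

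At 17 dpp, 4 of the 15 tested probe sets fell in mutants and none rose: the single probe set of Tdrd12, both of Stk31 and 1 of 4 of Rnf17. Of all tested probe sets, 3.86% fell. With the array set as a block, 10 of 15 were lower, from 8 of the 9 genes, against 8.05% of all tested probe sets, and Tdrkh was the gene without a call. The difference was negative for 14 of 15 probe sets, against 35.7% of all tested, with a median of −1.17 against 0.25 over all tested. On a common median for all arrays the median over all tested was 0.04 and that of the members −1.38. Under that scaling 1505 probe sets fell and 153 rose, against 1341 that fell and 513 that rose as deposited. In whole testis, fewer cells of a type and less RNA per cell cannot be told apart.

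Among the partners of PIWI proteins in piRNA production, Tdrd12, a helicase-like protein of secondary piRNA production, fell 2.94-fold. Its signal was 584, 437, 163, 238 and 232 in mutants (replicates 1 to 5) and 1863, 1068, 745, 399 and 861 in wild type at 17 dpp. Over all arrays the highest mutant value lay above the lowest wild-type value, but within set 1 and within set 3 every mutant array lay below every wild-type array. The log2 difference was −1.56 ± 0.37 (SE; limma adjusted p = 0.0155), −1.82 ± 0.23 with the block (adjusted p = 1.65e-05), −1.88 on set 1 (adjusted p = 0.0341) and −1.80 on set 3 (adjusted p = 0.000682). With the 17 dpp arrays alone the adjusted p was 0.139.

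Tdrd9, a Tudor helicase that works with the PIWI protein Piwil4 in transposon silencing, had 2368, 2077, 346, 291 and 648 in mutants and 5479.8, 1879.99, 1966, 931 and 1447 in wild type. On set 3 the mutant arrays (290.7 to 648) lay below all wild-type arrays (931 to 1966), and on set 1 both mutant arrays lay below the single wild-type array. The difference of −1.28 ± 0.54 did not pass over all arrays (adjusted p = 0.193), and it was −1.73 ± 0.23 with the block (adjusted p = 3.87e-05), −1.31 on set 1 (adjusted p = 0.17) and −1.89 on set 3 (adjusted p = 0.000295).

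Tdrd1, which binds methylated Piwil2 in the intermitochondrial cement, had 165, 169, 17.9, 11.8 and 10.8 in mutants and 837, 42.2, 50.2, 21 and 124 in wild type. The 3 mutant arrays and 3 of the 4 wild-type arrays of set 3 lay below their own 40th percentile of signal, so the values there are dim. The difference was −1.24 ± 0.93 (adjusted p = 0.499), −2.01 ± 0.39 with the block (adjusted p = 0.00154), −2.33 on set 1 (adjusted p = 0.164) and −1.88 on set 3 (adjusted p = 0.0199). Tdrkh, a mitochondrial Tudor protein that binds PIWI proteins while piRNA ends are trimmed, gave close group means. It had 1477, 980.1, 925, 775 and 1240.3 in mutants and 1182, 1464, 1117, 776 and 1237 in wild type, with wide overlap. Its difference of −0.11 ± 0.22 has a 95% interval of −0.56 to 0.35 (adjusted p = 0.841), and the block gave −0.15 (adjusted p = 0.614).

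Tdrd5 and Tdrd7, known in the mouse for building the chromatoid body of spermatids, differed between array sets as well as between genotypes. Tdrd5, which also takes part in making pachytene piRNAs, had 546, 499.8, 94.9, 45.7 and 122 in mutants and 3006, 404, 380.01, 118 and 153 in wild type. The 2 mutant arrays of set 1 lay above 4 of the 5 wild-type arrays, all 4 of set 3, yet far below the wild-type array of their own set. The difference was −1.17 ± 0.74 (adjusted p = 0.414), −1.79 ± 0.35 with the block (adjusted p = 0.00163), −2.52 on set 1 (adjusted p = 0.0609) and −1.5 on set 3 (adjusted p = 0.031).

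Tdrd7 1426716_at had 1908, 1435, 317, 40.4 and 586 in mutants and 3684, 1053, 1065, 571 and 1552 in wild type, with 1 mutant array of set 3 at 40.4, below its array's 40th percentile. Its groups overlapped over all arrays and within set 3. The difference was −1.49 ± 0.74 (adjusted p = 0.279), −2.01 ± 0.50 with the block (adjusted p = 0.00879), −1.15 on set 1 (adjusted p = 0.772) and −2.35 on set 3 (adjusted p = 0.0211). The untested Tdrd7 probe set 1459216_at read 0.715 to 24.8 in mutants and 0.704 to 14.3 in wild type at 17 dpp, and 1.74 to 6.34 in mutants and 2.02 to 39.8 in wild type at 14 dpp. It lay below the 40th percentile on all 18 arrays and gives no level.

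Stk31, a Tudor protein with a kinase-like domain, fell by both of its probe sets without overlap of the groups. Probe set 1425317_x_at had 2243, 2426, 993, 778 and 2293 in mutants and 3799.8, 5293, 5946, 2708 and 4180.4 in wild type. Probe set 1454138_a_at had 1644, 2151, 1457, 829.9 and 2685 in mutants and 2899, 5992, 6707, 3278 and 4423 in wild type. The falls were 2.69-fold (log2 −1.43 ± 0.30, adjusted p = 0.00699) and 2.71-fold (log2 −1.44 ± 0.30, adjusted p = 0.00564), and the block gave −1.52 (adjusted p = 0.000836) and −1.42 (adjusted p = 0.00198). Set 3 gave −1.84 (adjusted p = 0.00119) and −1.73 (adjusted p = 0.00296), while set 1 gave −0.70 (adjusted p = 0.692) and −0.62 (adjusted p = 0.772). Both calls also ended with the 17 dpp arrays alone (adjusted p = 0.0822 and 0.0584) and without set 3 (adjusted p = 0.0708 and 0.286).

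Rnf17, a RING finger and Tudor protein of its own germ granules that mouse spermatids need, fell by 1 of its 4 probe sets. On 1459275_at the signal was 1359, 1247, 696, 708 and 851 in mutants and 3149, 2604, 2304, 1515 and 2019 in wild type, with no overlap. That is a fall of 2.41-fold (log2 −1.27 ± 0.24, adjusted p = 0.00233), which also passed with the block (−1.41, adjusted p = 3.61e-06), within set 1 (−1.27, adjusted p = 0.0339), within set 3 (−1.47, adjusted p = 0.000127) and with the 17 dpp arrays alone (adjusted p = 0.0417). The brightest probe set, 1438820_at, had 1453, 1593, 2209, 1898 and 2858 in mutants and 1961, 3876, 4531, 3465 and 4535 in wild type. Its groups overlapped only through the wild-type array of set 1, and its difference of −0.86 ± 0.26 passed with the block (−0.70, adjusted p = 0.00175) but not without it (adjusted p = 0.0627).

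The other Rnf17 probe sets were not called. Probe set 1425708_at had 93.9, 113, 353, 447 and 239.6 in mutants and 119.8, 401, 402, 489 and 326 in wild type, a difference of −0.59 ± 0.71 (adjusted p = 0.698; block −0.24, adjusted p = 0.452). Probe set 1425709_at had 230.3, 198, 167, 233 and 357 in mutants and 279.96, 395, 407, 420.2 and 291 in wild type, a difference of −0.62 ± 0.45 (adjusted p = 0.474; block −0.57, adjusted p = 0.0652). The 4 Rnf17 probe sets thus gave the same sign and block differences from −1.41 to −0.24. The sources used here do not say which transcripts each one detects.

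Tdrd3, which reads methylated arginines on histones and RNA-binding proteins, gave different values by probe set. The brightest, 1451545_at, had 1069.5, 1072, 814, 489.9 and 1058 in mutants and 1658, 1704, 1549, 982 and 1472 in wild type, where 1 wild-type array (replicate 4) reached down among the mutants. The difference of −0.74 ± 0.23 did not pass (adjusted p = 0.0764), and it passed with the block (−0.82, adjusted p = 0.00581) and within set 3 (−0.90, adjusted p = 0.0239) but not within set 1 (−0.63, adjusted p = 0.589). By 1434869_at the signal was 218, 375, 424, 549 and 511 in mutants and 244, 582, 507, 596 and 424 in wild type (difference −0.18 ± 0.29, adjusted p = 0.787; block 0.001, adjusted p = 0.997). By 1441496_at it was 89.5, 96.3, 30.2, 166 and 72 in mutants and 85.1, 112, 56.4, 64.8 and 72.2 in wild type (difference 0.06 ± 0.40, adjusted p = 0.959; block −0.0006, adjusted p = 0.999). The 95% intervals of these 2 differences were −0.79 to 0.43 and −0.79 to 0.91.

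**Figure D2:**
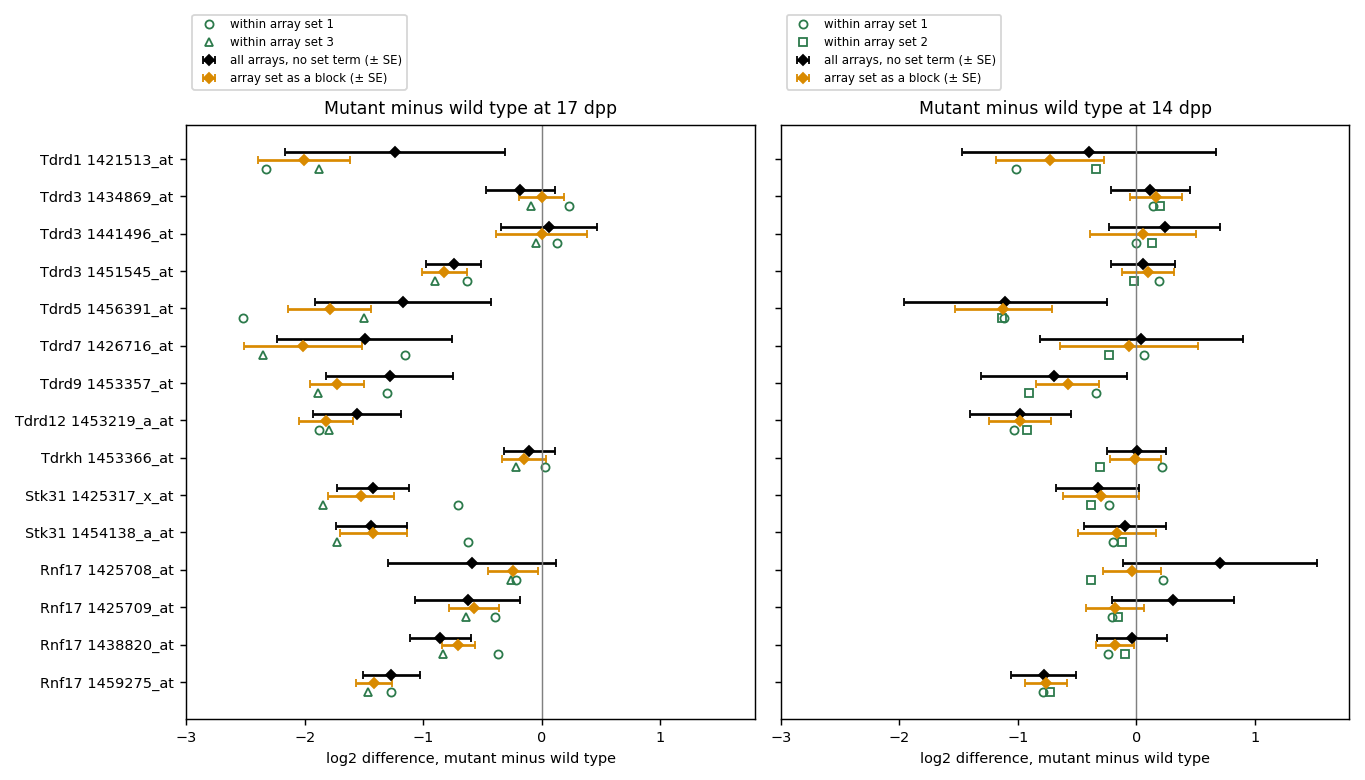
Log2 difference of mutant minus wild type (horizontal axis) for the 15 tested Tudor gene probe sets at 17 dpp (left) and 14 dpp (right). Filled diamonds with bars are estimates ± SE from all arrays (black) and with the array set as a block (orange), and open symbols are estimates within single array sets. At 17 dpp the block estimates of Tdrd1 and Tdrd7 lie near −2.01, with those of Tdrkh and 2 Tdrd3 probe sets near 0.

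By group, 3 of the 15 probe sets had every mutant array below every wild-type array at 17 dpp (both of Stk31 and Rnf17 1459275_at), against 3.31% of all tested probe sets. By the difference within set 3, 10 of 15 were lower, the same probe sets as with the block, against 6.07% of all tested. The fits for single sets took their spread from the arrays of all sets. Set 3 also holds most of the 17 dpp arrays behind the block estimate, so the match with the block is not separate support. Within set 1 alone 2 were lower, Tdrd12 and Rnf17 1459275_at, against 2.6%. That set holds 2 mutant arrays and 1 wild-type array of this age, which was assumed to vary like the others. Without the set 3 arrays, where the spread comes from the 11 other arrays, 5 were lower (Tdrd5, Tdrd7, Tdrd9, Tdrd12 and Rnf17 1459275_at) against 4.54% of all tested. By brightest probe set, 2 of the 9 genes fell, against 5.83% of 15307 genes, and with the block 8 of 9 were lower, against 11.4%.

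At 14 dpp no member probe set was called by limma over all arrays. An unadjusted p under 0.05 was found for 2 of 15 (Tdrd12 and Rnf17 1459275_at), against 696 of all 34764 tested. Of all tested probe sets 0.196% fell. With the block none of the members was called either, against 0.357% lower of all tested, and 4 had an unadjusted p under 0.05, against 1288 of all tested. Negative differences numbered 8 of 15, against 42.7% of all tested. Even so, 4 of 15 had every mutant array below every wild-type array, against 3.08% of all tested: Tdrd5, Tdrd9, Tdrd12 and Rnf17 1459275_at.

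Tdrd12 had 425, 407, 396, 470.1 and 439.6 in mutants and 739, 979 and 821 in wild type at 14 dpp, and all mutant arrays lay below the lowest wild-type array. The difference was −0.98 ± 0.43 (unadjusted p = 0.0343, adjusted p = 1), −1.03 within set 1 and −0.92 within set 2. Rnf17 1459275_at had 1017, 875, 925, 853 and 962 in mutants and 1386, 1922 and 1512 in wild type, a difference of −0.78 ± 0.28 (unadjusted p = 0.0106, adjusted p = 1; block adjusted p = 0.106). Tdrd5 had 299, 413, 329.6, 324 and 458 in mutants and 701, 827 and 802 in wild type, a difference of −1.11 ± 0.86 (adjusted p = 1; block adjusted p = 0.863). These groups differ by more than their own spread, with log2 standard deviations for Tdrd5 of 0.26 over the 5 mutant arrays and 0.13 over the 3 wild-type arrays. The model over all arrays also holds the 17 dpp spread of that probe set, 1.56 in mutants and 1.84 in wild type (5 arrays each).

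With the 14 dpp arrays alone these 3 probe sets were called, against 0.495% of all tested probe sets lower. The adjusted p was 0.0187 for Tdrd12, 0.0303 for Tdrd5 and 0.0418 for Rnf17 1459275_at. Without the set 3 arrays the same 3 were called (0.0121, 0.0106 and 0.0199), against 0.641% of all tested. Tdrd9 had 1743, 1776, 1166, 1109 and 1141 in mutants and 1988, 2491 and 2127 in wild type, and its difference of −0.69 ± 0.62 was not called in these fits (adjusted p = 0.326 with the 14 dpp arrays alone).

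The remaining members overlapped at 14 dpp. Tdrd1 had 158, 99.4, 417, 350.2 and 285 in mutants and 247, 261 and 438 in wild type (difference −0.40 ± 1.07). Tdrd7 had 1209, 1079, 1353, 1363 and 1413 in mutants and 1042, 1138 and 1614 in wild type (0.04 ± 0.86). Tdrkh had 1314, 1218, 1184, 1131 and 1136 in mutants and 1128, 1053 and 1419 in wild type (0.01 ± 0.25). The intervals of these differences were wide, −2.65 to 1.85 for Tdrd1 and −1.76 to 1.84 for Tdrd7, and narrower for Tdrkh (−0.52 to 0.53).

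Stk31 had 2172, 2131, 2120.2, 1849 and 1827 in mutants and 2162, 2961 and 2506 in wild type by 1425317_x_at (−0.32 ± 0.35), and 1945, 1629, 2518, 1686 and 2409 in mutants and 1728, 2408 and 2354 in wild type by 1454138_a_at (−0.09 ± 0.35). Tdrd3 had 1146, 1071, 993, 895 and 941 in mutants and 929, 1016 and 956 in wild type by 1451545_at (0.06 ± 0.27), and its other probe sets differed by 0.12 ± 0.34 and 0.24 ± 0.47. For Rnf17, 1438820_at had 1649, 1476, 2489, 2163 and 2378 in mutants and 1739.7, 1956 and 2493 in wild type (−0.04 ± 0.30). By 1425708_at it read 102.3 to 139 in mutants and 98.96 to 105 in wild type on set 1, and 659 to 733 in mutants and 915 in wild type on set 2, so these values were ordered by array set. The positive differences of 1425708_at (0.70 ± 0.82) and 1425709_at (0.31 ± 0.51) became −0.04 and −0.18 with the block. None of the differences in this paragraph was called (limma adjusted p = 1).

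**Figure D3:**
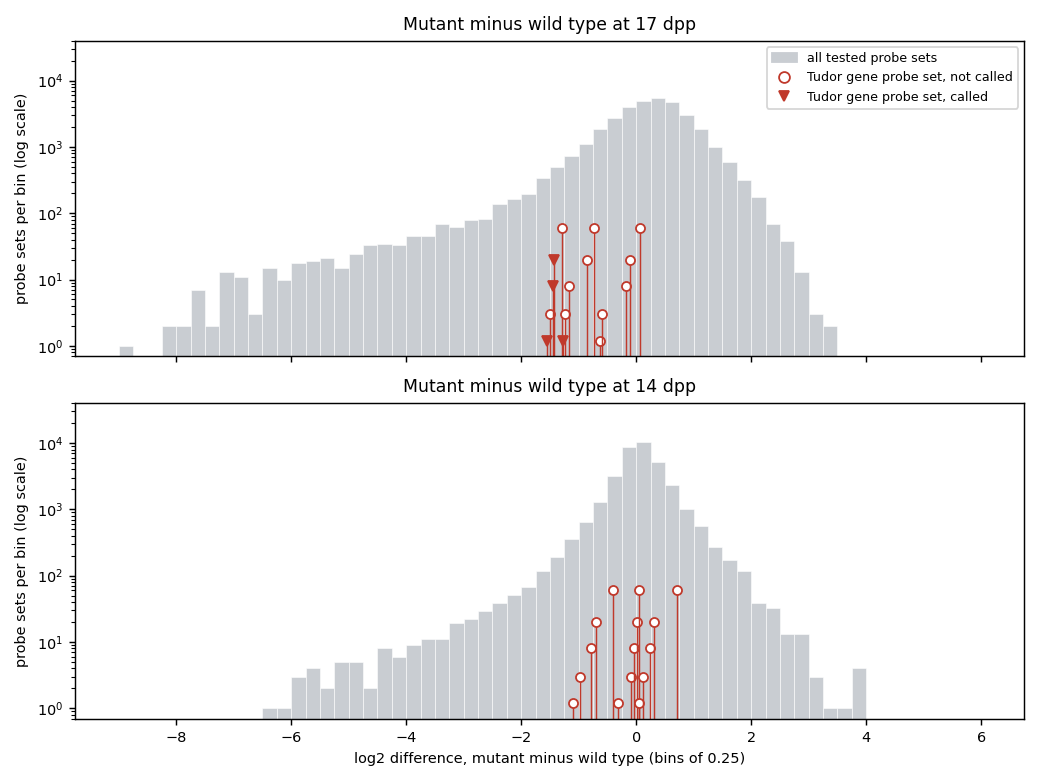
Distribution of the log2 difference of mutant minus wild type over 34764 tested probe sets (grey bars, bins of 0.25, log count axis) at 17 dpp (above) and 14 dpp (below), with the 15 Tudor gene probe sets as red stems whose heights carry no value. Filled triangles are called probe sets: 4 at 17 dpp, all on the left, and 0 at 14 dpp.

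Averaged over both ages, 2 of 15 probe sets fell, Tdrd12 (−1.27 ± 0.28, adjusted p = 0.0142) and Rnf17 1459275_at (−1.03 ± 0.18, adjusted p = 0.00186), against 2.55% of all tested. Without wild-type replicate 2 of 14 dpp, Tdrd12 had an adjusted p of 0.0636. Stk31 1425317_x_at lay at the threshold (−0.88 ± 0.23, adjusted p = 0.0502). With the block 8 of 15 were lower, against 5.11%, and these included Tdrd1 (−1.37, adjusted p = 0.00687), Tdrd5 (−1.46, adjusted p = 0.00165) and Tdrd9 (−1.15, adjusted p = 0.000279).

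Whether the genotype difference itself changed with age was tested by the interaction, the 17 dpp difference minus that of 14 dpp. It was negative for all 15 probe sets, against 41.2% of all tested, but none was called (limma), against 0.204% lower of all tested. An unadjusted p under 0.05 was found for 3, against 1951 of all 34764 tested. With the block none was called either, against 1.13% of all tested, and 9 had an unadjusted p under 0.05, against 4363 of all tested. The smallest unadjusted p was that of Stk31 1454138_a_at (−1.35 ± 0.46, limma adjusted p = 0.511). Estimates ran from −1.54 for Tdrd7 to −0.06 for Tdrd5. With array weights 1 member was called, Stk31 1454138_a_at (−1.68, limma adjusted p = 0.041), against 1.19% of all tested.

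Across age in wild type, 1 of 15 probe sets rose, Stk31 1454138_a_at, which had 2899, 5992, 6707, 3278 and 4423 at 17 dpp and 1728, 2408 and 2354 at 14 dpp, a rise of 2.07-fold (log2 1.05 ± 0.35, adjusted p = 0.0399). It was also the only member whose 17 dpp arrays all lay above those of 14 dpp, against 5.49% of all tested, and 4.86% of all tested rose. The call ended with the block (1.05, adjusted p = 0.14) and without any 1 of wild-type replicates 1, 2 or 3 of 14 dpp or 2, 3 or 5 of 17 dpp (adjusted p of 0.0743 to 0.151). Set 2 holds no array of 17 dpp and set 3 none of 14 dpp, so with the block the step between ages rests on set 1, which has 1 wild-type and 2 mutant arrays of 17 dpp. With the block, 3 others were higher at 17 dpp, against 3.06% of all tested: Tdrd9 (1.46 ± 0.34, adjusted p = 0.0135), Tdrd12 (1.11 ± 0.33, adjusted p = 0.0483) and Rnf17 1459275_at (1.05 ± 0.23, adjusted p = 0.00801).

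The signs of the wild-type age differences of Tdrd1, Tdrd5 and Tdrd9 turned with the array sets. For Tdrd1 the difference was −1.83 ± 1.07 over all arrays and 1.65 ± 0.58 with the block (adjusted p = 0.0893). For Tdrd9, without the block it was −0.18 ± 0.62 in wild type, with 5479.8, 1879.99, 1966, 931 and 1447 at 17 dpp and 1988, 2491 and 2127 at 14 dpp, so that its set 1 array lay above and its 4 set 3 arrays below the 14 dpp values. Tdrd5 likewise had 3006, 404, 380.01, 118 and 153 at 17 dpp and 701, 827 and 802 at 14 dpp, a difference of −1.01 ± 0.86 over all arrays, 1.49 ± 0.52 with the block (adjusted p = 0.0891) and 1.96 without set 3 (adjusted p = 0.00156). On the set 1 arrays alone each of Tdrd1, Tdrd5, Tdrd7, Tdrd9 and Tdrd12 was higher in wild type at 17 dpp, by 1.72, 1.98, 1.76, 1.30 and 1.13, with 1 array of 17 dpp and no call (5 of 15 probe sets had an unadjusted p under 0.05). Without the set 3 arrays, where the other arrays set the spread, 6 of 15 were higher, against 4.29% of all tested.

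In mutants no member was called across age, by limma over all arrays (against 1.92% of all tested) or with the block (against 1.37%). An unadjusted p under 0.05 was found for 2 of 15 without the block and 0 with it, against 10248 and 3634 of all 34764 tested. Over all arrays Tdrd1 had the largest difference, −2.67 ± 0.93 (adjusted p = 0.0908), which was 0.37 with the block. It was called without mutant replicate 1 (adjusted p = 0.0291), mutant replicate 2 (adjusted p = 0.0321) or wild-type replicate 1 (adjusted p = 0.0372) of 17 dpp, the 3 arrays of that age in set 1. The differences of Tdrd5, Tdrd7, Tdrd9 and Tdrd12 were likewise negative over all arrays (−1.08, −1.47, −0.77 and −0.52) and positive with the block (0.82, 0.31, 0.31 and 0.28), none called. Block differences of the 15 probe sets ran from −0.33 for Tdrd3 1434869_at to 0.82 for Tdrd5.

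Set in order of geometric mean over all arrays, wild type at 17 dpp was the highest of the 4 groups for both Stk31 probe sets, for Rnf17 1438820_at and 1459275_at, for Tdrd12, for Tdrd7 and for Tdrd3 1451545_at and 1434869_at. Mutants at 17 dpp were the lowest of the 4 for both Stk31 probe sets, every Rnf17 probe set except 1459275_at, Tdrd1, Tdrd5, Tdrd7, Tdrd9, Tdrd12, Tdrkh and Tdrd3 1451545_at. For Stk31 1425317_x_at the order was 4229.6 (wild type, 17 dpp), 2522 (wild type, 14 dpp), 2014 (mutants, 14 dpp) and 1573 (mutants, 17 dpp). Their standard deviations on the log2 scale were 0.44, 0.23, 0.12 and 0.78, and the arrays of neighbouring groups in this order overlapped. For Tdrd12 the arrays of wild type at 17 dpp (874) and at 14 dpp (841) overlapped, as did those of mutants at 14 dpp (427) and at 17 dpp (297). For Tdrd1 the order was 305 (wild type, 14 dpp), 231 (mutants, 14 dpp), 85.8 (wild type, 17 dpp) and 36.4 (mutants, 17 dpp), with standard deviations at 17 dpp of 2.03 in mutants and 2.05 in wild type that exceed the steps between neighbours. These orders over all arrays set 17 dpp arrays of set 3 against 14 dpp arrays of other sets. Within set 1 the order of ages in mutants turned for Tdrd1, Tdrd5, Tdrd7, Tdrd9, Tdrd12, both Stk31 probe sets, Rnf17 1425709_at and Tdrd3 1434869_at. In wild type it turned for Tdrd1, Tdrd5, Tdrd9, Tdrkh, Rnf17 1425709_at and Tdrd3 1434869_at. On set 1 Tdrd1 stood at 837 (wild type, 17 dpp, 1 array), 254 (wild type, 14 dpp), 167 (mutants, 17 dpp) and 125 (mutants, 14 dpp). Mutants at 17 dpp also lay above mutants at 14 dpp on set 1 for Tdrd5 (523 against 352), Tdrd7 (1655 against 1142), Tdrd9 (2218 against 1759) and Tdrd12 (505 against 416), with 2 arrays each.

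Once array set means were removed, the members varied together across the 18 arrays, with Tdrkh as the least like the others. Pearson's r between brightest probe sets was highest for Tdrd9 with Stk31 (0.952) and Tdrd3 with Tdrd7 (0.951), and 0.324 to 0.639 for Tdrkh with any other member. These points share genotype and age and are given as a description. The 2 genes most like each member, by the same measure over 15307 genes, were Morn5 and Ropn1l for Tdrd12 (0.989 and 0.988), Kifap3 and Ift81 for Stk31 (0.975 and 0.973), Ttc26 and Wdr35 for Tdrd9 (both 0.981), Mrps18c and Wdpcp for Tdrd7 (0.983 and 0.98), and Osgepl1 and Ankrd42 for Tdrd3 (both 0.978). They were Ccdc66 and Gmfb for Rnf17 (0.978 and 0.967), Rbm44 and Cdkn2c for Tdrd1 (0.97 and 0.963), Cep43 and Uggt2 for Tdrd5 (0.959 and 0.952), and Cab39l and Golga5 for Tdrkh (0.898 and 0.881).

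Other genes of the pathway were read from a list of 18 PIWI proteins and germ granule partners, of which 17 were tested. By brightest probe set 6 of the 17 fell at 17 dpp, none rose and the median difference was −0.72, against 5.83% of all genes that fell and a median of 0.26. The 3 largest falls were those of Piwil1, the PIWI protein of pachytene piRNAs (−6.85 ± 0.34, adjusted p = 2.04e-09), Ddx25, a helicase of the chromatoid body (−2.54 ± 0.38, adjusted p = 2.25e-04), and Mael, a germ granule protein of transposon silencing (−1.58 ± 0.25, adjusted p = 4.41e-04). With the block 11 were lower and 1 higher, against 11.4% and 14.4% of all genes. At 14 dpp Piwil1 was the single call (−4.15 ± 0.39, adjusted p = 6.22e-05), against 0.32% of all genes that fell.

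Of 23 other Tudor domain genes listed, 20 were tested, all except Tdrd6, Tdrd10 and Tdrd15. At 17 dpp none of the 20 was called by limma over all arrays, against 5.83% lower and 2.03% higher of all genes. Unadjusted, 3 had a p under 0.05, against 6728 of all 34764 tested probe sets. There were 7 negative differences and a median of 0.20. With the block 3 were lower (Lbr, Phf1 and Uhrf1) and 3 higher (Snd1, Akap1 and Sgf29), against 11.4% and 14.4% of all genes. All 6 are named because the counts are small. Both lists were written with earlier results of these data known, and the medians −1.24 of the 9 members, −0.72 and 0.20 are descriptions.

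**Figure D4:**
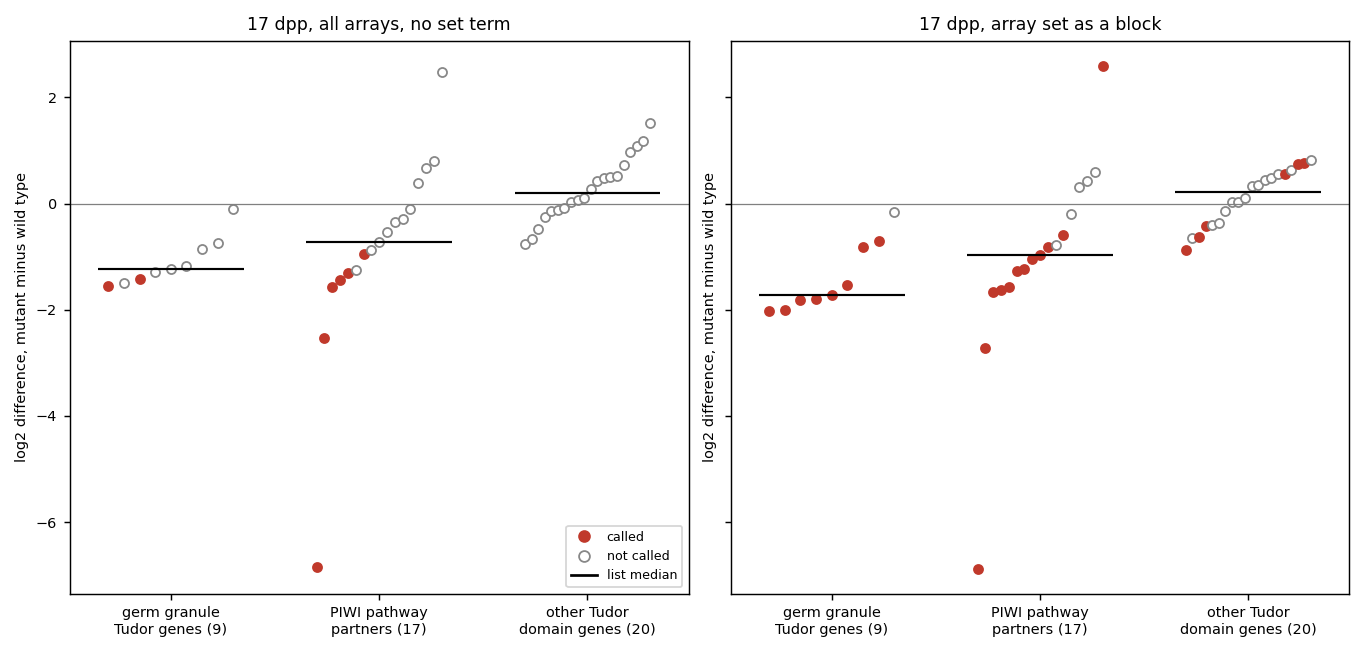
Log2 difference of mutant minus wild type at 17 dpp (vertical axis) for each gene, by brightest probe set, of the 9 germ granule Tudor genes, 17 PIWI pathway partners and 20 other Tudor domain genes, over all arrays (left) and with the array set as a block (right); red points are called and lines are list medians. All 9 germ granule Tudor genes lie below 0 in both panels, and the lowest partner is Piwil1 at −6.85.

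Markers of testis cell types moved with genotype at 17 dpp beside these differences. Of 7 pachytene spermatocyte markers 6 fell (median −5.66), against 5.83% of all genes, and 1 of the 7 is Piwil1, also on the partner list. Their signal summed to 1289 to 2788 in mutants, against 47999 to 102850 in wild type. At 14 dpp 5 of 7 fell, against 0.32% of all genes, with sums of 1069 to 1957 in mutants and 8975 to 13414 in wild type. Of 6 broader germ cell markers 2 fell at 17 dpp, Mael and Ddx4, both also on the partner list, with sums of 48682 to 88357 in mutants and 55690 to 119031 in wild type. Sertoli markers (8 tested) and spermatogonia markers (6) had no call by limma over all arrays, with 2 and 5 at an unadjusted p under 0.05, and medians of 0.57 and 0.96. Of all 34764 tested probe sets, 6728 had an unadjusted p under 0.05. Their sums were 32454 to 63938 in mutants and 23027 to 51504 in wild type for Sertoli cells, and 2479 to 8474 in mutants and 1098 to 4691 in wild type for spermatogonia.

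Among the other lists, 1 of 5 macrophage markers rose (Csf1r), against 2.03% of all genes, with sums of 5366 to 9244 in mutants and 2823 to 5101 in wild type. Leydig (4), peritubular myoid (5), endothelial (5) and epididymis (2) markers had no call by limma, with 1, 0, 0 and 0 at an unadjusted p under 0.05 and medians of 1.0, 0.63, 0.39 and 0.13. With the block 3 spermatogonia, 4 Sertoli, 1 myoid and 3 macrophage markers were higher, against 14.4% of all genes. No marker of any list was listed at 0 on any array, so the germ cell and Sertoli cell markers of the labelled tissue had signal throughout. The part of these cell types in the differences of the Tudor genes was not tested.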

How the data were processed

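Total RNA of whole testes was labelled and hybridised to Affymetrix whole-genome mouse expression arrays, 18 in all, per the labels' protocols. The values used are the deposited MAS5 signal of each probe set, a linear intensity that the authors made with Affymetrix GCOS software, per the design text, which also names MeV 4.6.1 for a two-way model on log2 values. No further step before deposit is given in the sources used here, and no value column was left unused (0). Of 45101 probe sets, 64 controls were left out, 34945 had 1 annotated gene, 932 several and 9160 none.

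Signals were put on the log2 scale as deposited, and a probe set was tested where 3 or more arrays had it above the 40th percentile of their own signals, which kept 34764. One mean per group was fitted over all 18 arrays with limma 3.58.1 in R 4.3.3 (14 residual degrees of freedom, trend in the prior variance), with 6 contrasts and Benjamini-Hochberg adjustment over all tested probe sets at a threshold of 0.05. For counts by gene, the brightest tested probe set stood for the gene (15307 genes). The model was also run on simulated data that held no array sets and the same spread in every group. That run therefore does not check how the array sets or unequal spreads were handled. The array sets were defined from the β-actin 3′ to 5′ signal ratio with bounds of 1.9 and 10, found after seeing the data. The block adds them as a factor (12 residual degrees of freedom), and scan dates or hybridisation batches are not given. The alternatives were the block, single sets, each array left out, other scalings, filters and weights, a pseudocount of 16 and the methods' two-way model without moderation at 0.025. A single-set fit gave the difference within that set, with the spread taken from the arrays of all sets. The block with a common median or with quantile scaling was added after seeing the data.

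The named-genes rule was to describe all members, at most 3 called genes per list and the 2 genes most like each member. Markers were read by list. The members and lists were chosen with earlier results of these data known. Groups share replicate numbers, but deviations of same-numbered arrays correlated at 0.283 to 0.385 at 14 dpp and at −0.227 to 0.777 at 17 dpp, so the numbers were not taken as pairs. No 2 arrays were identical. Promoter windows came from RefSeq on GRCm38.p6. The number of arrays limits the precision, and no depth applies to an array.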

Additional observations from a re-analysis of the deposited data

Results flagged for a closer look

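Of 45 groups of 4 or more arrays examined for a single array far from the others, 2 had one, and chance alone marks about 1 in 20. For Tdrd3 1451545_at, wild-type replicate 4 at 17 dpp had a signal of 982, and the nearest of the other wild-type arrays had 1472. The gap was 0.735 of the group's range on the log2 scale, and the array belongs to set 3. For Rnf17 1425708_at, wild-type replicate 1 at 17 dpp had a signal of 119.8, and the nearest of the other wild-type arrays had 326. The gap was 0.713 of the range, and this array is the single wild-type array of that age in set 1.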

How the results depend on the processing

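Counts of calls changed with the handling of the array sets and with array weights. At 17 dpp, against 4 of 15 members called over all arrays, 10 were lower with the block, 10 within set 3, 2 within set 1, 1 with the 17 dpp arrays alone, and 11 with the block and either a common median or quantile scaling. At 14 dpp, against 0, 3 were lower without set 3, 3 with the 14 dpp arrays alone, 6 called with array weights (2 of them higher) and 1 with the block and quantile scaling. Averaged over ages, against 2, 8 were lower with the block (with either scaling too), 5 without set 3 and 6 called with array weights. The interaction had 0 calls, and 1 with array weights (Stk31 1454138_a_at). Age in mutants had 0, and 7 lower with array weights. Of all tested probe sets, array weights called 15.4% at 14 dpp, 7.92% averaged over ages, 1.19% for the interaction and 35.9% for age in mutants.

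Age in wild type had 1 call over all arrays, 3 with the block (with either scaling too), 6 without set 3, 0 within set 1, 0 with wild-type arrays alone, 5 with a common median, 3 with quantile scaling, 2 with the 60th percentile filter, 7 with array weights (5 higher, 2 lower), 2 with the replicate block and 0 in the methods' two-way model without moderation. Its Tdrd9 difference of −0.18 turned to 1.46 with the block, 1.32 without set 3, 1.70 with block and common median and 1.38 with block and quantile scaling, and its Tdrd5 difference of −1.01 turned to 1.96 without set 3 and, uncalled, to 1.49 with the block. The cause of these turns was not tested. For age in wild type, the share of all tested probe sets called was 21.4% over all arrays and 50.6% with array weights. It was 7.63% with the block, 16.6% with wild-type arrays alone, 14.4% with a common median and 14.6% with quantile scaling. The 60th percentile filter called 33.7% of those it kept, the replicate block 14.5% and the model without moderation 7.17%. The replicate numbers could not be shown to pair arrays. The replicate block called 6 members at 17 dpp, adding Tdrd3 1451545_at (adjusted p = 0.0255) and Rnf17 1438820_at (0.00883), 0 at 14 dpp, 2 averaged, 0 for the interaction and 0 for age in mutants.

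Leaving out 1 array at a time gave 0 to 0 member calls at 14 dpp, 4 to 5 at 17 dpp, 1 to 4 averaged (1 without wild-type replicate 2 of 14 dpp, 4 without mutant replicate 5 or wild-type replicate 1 of 17 dpp), 0 to 0 for the interaction, 0 to 4 for age in wild type (4 without wild-type replicate 1 of 17 dpp, 3 higher and Tdrd1 lower) and 0 to 1 for age in mutants. Over the whole array 1206 to 3947 probe sets were called at 17 dpp, the extremes without wild-type replicates 5 and 1. All tested probe sets called numbered 1854 at 17 dpp over all arrays, 6550 with the block, 990 within set 1, 4006 within set 3, 862 with the 17 dpp arrays alone, 4970 with block and common median and 5903 with block and quantile scaling. At 14 dpp they numbered 68, 128 with the block, 31 within set 2, 233 without set 3, 177 with the 14 dpp arrays alone, 5357 with array weights and 33 in the model without moderation. Of 2892 single member differences under alternatives, 2528 kept direction and call, 128 gained and 21 lost a call in the same direction, and 215 changed sign, 5 of them with a call in 1 of the fits and 210 with none. Age differences made up 60 (mutants) and 57 (wild type) of the sign changes. Fits within set 2 exist for 14 dpp alone and within set 3 for 17 dpp alone. Dim signal limits Tdrd1 at 17 dpp, and Tdrd7 1459216_at everywhere.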
